A study of Zea mays with 6 samples.

Results

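A set of 4 MADS-box transcription factor genes was followed in maize (Zea mays) anthers: zag1 (Zm00001d037737), si1 (Zm00001d036425), zmm4 (Zm00001d034045) and mads69 (Zm00001d042315). They were taken from the count table by these identifiers and make up 4 of its 46430 genes. The name of each identifier was given with the selection, since neither the count table nor the reference gene table pairs it with a name. RNA-seq covered 3 libraries of wild-type anthers (WT, genotype code AA) and 3 of anthers of the zmrpn1-1 mutant (zmrpn1, code aa), whose labels give a knockout of ZmRPN1 and the word Mutator, which in maize stands for a transposable element family. Both groups were labelled as anthers of stages S3 to S5. The labels do not state the plant background, any pooling, the stage mix of each library or how the WT plants were related to the mutants. The p-values therefore cover only the variation among the 6 libraries, part of which may be technical. The series title ties ZmRPN1 to pollen number, and the comparison asks whether anthers without it differ in transcript abundance.

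MADS-box proteins bind DNA as dimers and act in larger complexes that set the identity of floral organs. In the ABC scheme of flower development, B-class and C-class proteins together specify stamens, the organs that carry the anthers. Other members of the family act earlier, in the switch of the shoot apex from vegetative to floral growth. Of the organ identity genes, zag1 is a C-class gene related to AGAMOUS of Arabidopsis, and si1 (silky1) is a B-class gene related to APETALA3, whose loss turns maize stamens into carpel-like organs. Of the flowering-time genes, zmm4 is related to FRUITFULL and APETALA1 and promotes the floral transition, and mads69 promotes flowering by lowering a floral repressor.

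Library totals ran from 16203290 to 29515176 counts. Across tested genes, log2 CPM correlated at 0.992 to 0.993 for pairs of libraries in the same group and at 0.979 to 0.982 for pairs from different groups (Pearson). Of the mutant libraries, zmrpn1 replicate 3, the deepest of its group, differed most from the others: chi-square per degree of freedom was 4.40 and 4.87 against replicates 1 and 2, and 2.03 between those. In WT it was 3.92 between replicates 1 and 3, 2.40 between 1 and 2, and 2.39 between 2 and 3. WT replicate 3 was the deepest library of all. Results are also given without zmrpn1 replicate 3. The identifier of ZmRPN1 and those of anther or other tissue markers are not paired with a name in the sources used here, so neither the genotype labels nor the tissue label was checked against marker genes. Whether reads were counted by strand, and how reads matching more than 1 place were treated, is not given either. Maize has relatives of several MADS-box genes, such as zmm2 for zag1 and zmm15 for zmm4. Counts may be uncertain to the extent that reads were shared with them. CPM (counts scaled to library size, here with TMM factors) is not corrected for transcript length, so levels are compared between libraries and not between genes.

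All 4 genes were detected in every library and none differed between zmrpn1 and WT past the threshold. At an edgeR quasi-likelihood adjusted p under 0.05, 0 of the 4 were called, where 12.4% of 23477 tested genes were called, 6.63% as higher in zmrpn1 and 5.82% as lower. DESeq2 and limma-voom also called 0 of the 4. At an unadjusted edgeR p under 0.05 there were 2, si1 and zmm4, where 23.4% of tested genes reached that level. That count was 2 in 7 of 15 alternative fits, 1 in another 7 and 0 in the fit without zmrpn1 replicate 1. The log2 values were positive for 2 genes and negative for 2, and the sign did not follow the organ identity or flowering-time class. The median log2 change was -0.03 over the 4 genes and 0.0012 over all tested genes, and the median absolute change was 0.11 and 0.10. The 95% intervals of the 4 changes together spanned 0.826-fold to 1.16-fold. RNA of whole anthers was measured, so fewer cells of a type and less RNA per cell cannot be told apart.

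**Figure D1:**
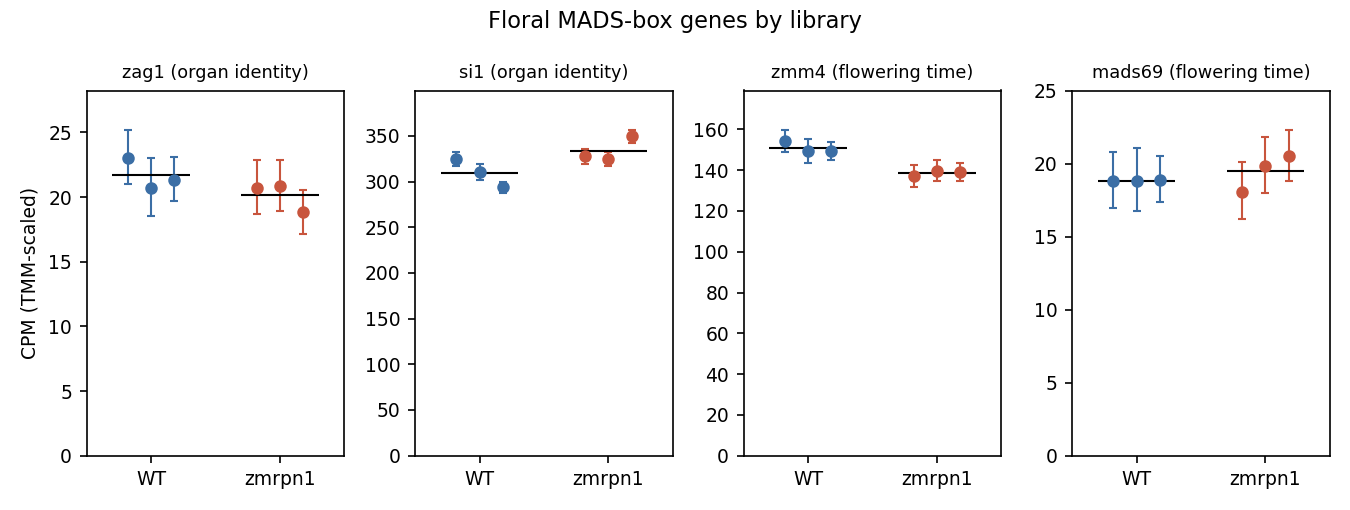
CPM (TMM-scaled, linear axes from 0) of zag1, si1, zmm4 and mads69 in each of 3 WT (blue) and 3 zmrpn1 (red) libraries, replicates 1 to 3 from left to right, with exact 95% Poisson intervals of the count as bars and group means as lines. The WT and zmrpn1 points overlap for zag1, si1 and mads69, and the 3 zmrpn1 points of zmm4 (137 to 140 CPM) lie below the 3 WT points (149 to 154 CPM).

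Of the organ identity genes, zag1 had 23.0, 20.7 and 21.4 CPM in WT replicates 1, 2 and 3, from 466, 334 and 631 counts. In zmrpn1 replicates 1, 2 and 3 it had 20.7, 20.8 and 18.8 CPM, from 392, 436 and 488 counts. The groups overlapped, since zmrpn1 replicates 1 and 2 lay just above the lowest WT library, and zmrpn1 replicate 3 was the lowest of all. The means of this C-class gene were 21.7 ± 1.21 CPM in WT and 20.1 ± 1.14 CPM in zmrpn1 (mean ± SD, n = 3 each). The log2 change from WT to zmrpn1 was -0.11 ± 0.08 (standard error), with an edgeR adjusted p of 0.444. Its 95% interval ran from 0.826-fold to 1.04-fold. Without zmrpn1 replicate 3 the log2 change of zag1 was -0.06, and without WT replicate 1 it was -0.07.

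The B-class gene si1 had 325, 311 and 294 CPM in WT replicates 1, 2 and 3, from 6576, 5019 and 8681 counts. In zmrpn1 replicates 1, 2 and 3 it had 328, 324 and 350 CPM, from 6202, 6787 and 9071 counts. The groups of si1 met at a single point: zmrpn1 replicate 2 lay just below WT replicate 1, and every other zmrpn1 library lay above every WT library. With scaling by library size only, the si1 groups no longer overlapped, which made 2 of the 4 genes with groups apart, where the share over all tested genes at that scaling was 27.0%. The means of si1 were 310 ± 15.6 CPM in WT and 334 ± 13.7 CPM in zmrpn1 (mean ± SD, n = 3 each). The log2 change was 0.11 ± 0.05 (standard error), with an edgeR adjusted p of 0.204 and an unadjusted p of 0.0461, and the interval ran from 1.001-fold to 1.16-fold. Without WT replicate 3 the log2 change of si1 was 0.07 and without zmrpn1 replicate 3 it was 0.08.

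Of the flowering-time genes, zmm4 had 154, 149 and 149 CPM in WT replicates 1, 2 and 3, from 3124, 2412 and 4413 counts. In zmrpn1 replicates 1, 2 and 3 it had 137, 140 and 139 CPM, from 2595, 2920 and 3605 counts. Each zmrpn1 library was lower than each WT library, and zmm4 was the only 1 of the 4 genes whose groups did not overlap with TMM scaling. Over all tested genes 27.0% had groups that did not overlap, and 13.2% had the zmrpn1 libraries below the WT libraries. The means of zmm4 were 151 ± 2.90 CPM in WT and 139 ± 1.30 CPM in zmrpn1 (mean ± SD, n = 3 each). The log2 change was -0.12 ± 0.05 (standard error), with an edgeR adjusted p of 0.116, an unadjusted p of 0.0199 and an interval of 0.854-fold to 0.986-fold. This interval is for a single gene and is not adjusted for the number of genes tested, which is why it can leave out no change while the adjusted p misses the threshold. The adjusted p of zmm4 was 0.0948 with DESeq2 and 0.107 with limma-voom, and over 15 alternative fits it ran from 0.0886 to 0.285. Without zmrpn1 replicate 3 the log2 change of zmm4 was -0.13 (edgeR adjusted p = 0.0886).

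The other flowering-time gene, mads69, had 18.8, 18.8 and 18.9 CPM in WT replicates 1, 2 and 3, from 380, 304 and 558 counts. In zmrpn1 replicates 1, 2 and 3 it had 18.1, 19.8 and 20.5 CPM, from 342, 415 and 532 counts. The WT libraries of mads69 lay within the range of the zmrpn1 libraries, 1 of which was below and 2 of which were above them. Its means were 18.8 ± 0.0554 CPM in WT and 19.5 ± 1.26 CPM in zmrpn1 (mean ± SD, n = 3 each). The log2 change was 0.05 ± 0.08 (standard error), with an edgeR adjusted p of 0.78, and the interval ran from 0.924-fold to 1.16-fold. Without zmrpn1 replicate 3 the log2 change of mads69 was 0.01, and without zmrpn1 replicate 1 it was 0.10. In zmrpn1 replicate 3 the zag1 level was the lowest of the 6 libraries, and the si1 and mads69 levels were the highest.

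**Figure D2:**
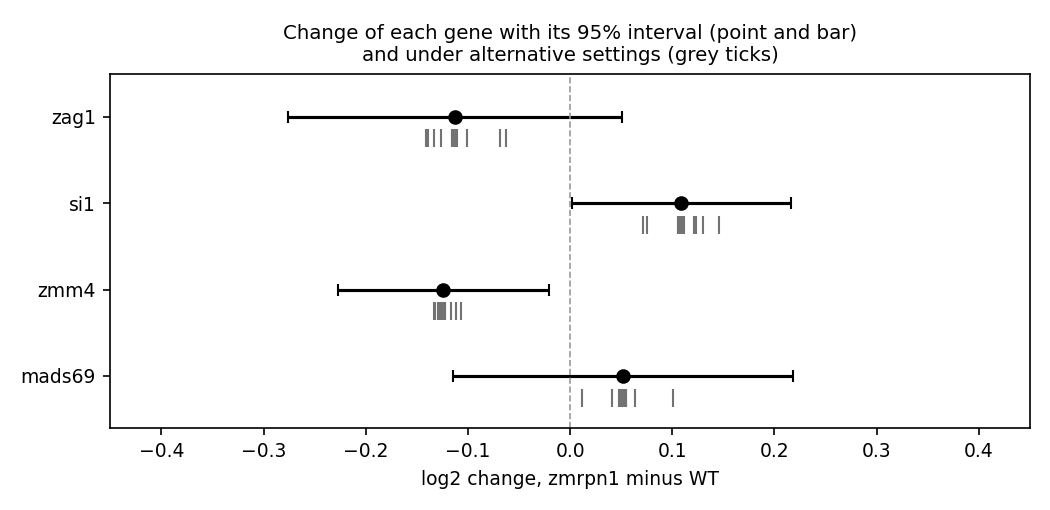
Log2 change from WT to zmrpn1 (x axis) of the 4 genes, with points and bars for the edgeR estimate and its 95% interval and grey ticks for 15 alternative fits. The estimates lie between -0.12 and 0.11, and no tick changes sign.

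The genes differed in how closely replicates agreed. The pooled SD of log2 CPM within groups was 0.0217 for zmm4, and 0.81% of tested genes had a smaller one. It was 0.0661 for si1, 0.0671 for mads69 and 0.0812 for zag1, and the median over tested genes was 0.106. Counting error alone would give an SD of 0.0261 for zmm4, 0.072 for mads69 and 0.0687 for zag1, all close to the pooled spread. The pooled spread of zmm4, whose groups did not overlap, was below what counting error gives on average. Its SD of log2 CPM was 0.0275 in WT and 0.0136 in zmrpn1. For si1 counting error would give 0.0175, and the spread between its replicates was larger than that. The fewest counts behind a value were the 304 of mads69 in WT replicate 2, with an exact 95% Poisson interval of 271 to 340 counts, which covers counting error only. The WT libraries of mads69 lay closer together (SD of log2 CPM 0.0042) than counting error gives on average. Its zmrpn1 libraries lay further apart (0.0948), so its pooled spread describes neither group. The smallest absolute log2 change of any called gene was 0.151, above the 0.124 of zmm4, the largest of the 4.

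**Figure D3:**
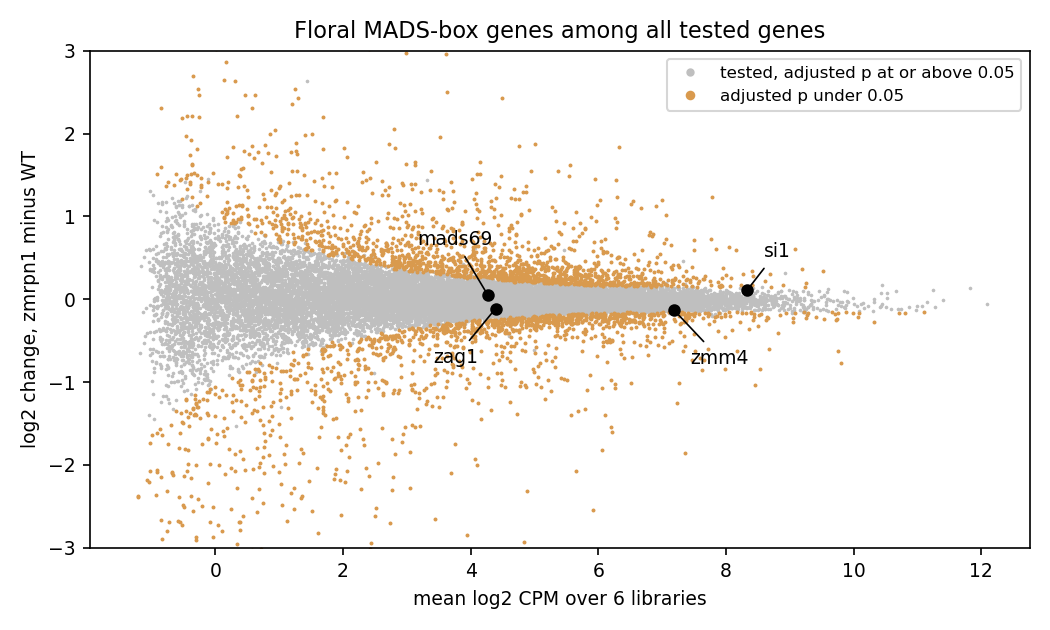
Log2 change from WT to zmrpn1 (y axis) against mean log2 CPM over 6 libraries (x axis) for 23477 tested genes, with genes at an adjusted p under 0.05 in orange and the 4 MADS-box genes in black. The y axis stops at 3 log2 units on either side, which leaves out 61 genes, and the 4 genes lie within the grey band of genes that were not called.

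The ratio of the counts of 2 genes within a library does not depend on how libraries are scaled. The ratio of zag1 to si1 counts, which sets the C-class gene against the B-class gene, was 7.09%, 6.65% and 7.27% in WT replicates 1, 2 and 3. In zmrpn1 replicates 1, 2 and 3 it was 6.32%, 6.42% and 5.38%. Each zmrpn1 library was lower in this ratio than each WT library, with a difference of -0.22 on the log2 scale, from -3.84 ± 0.066 in WT to -4.05 ± 0.14 in zmrpn1 (mean ± SD, n = 3 each). The ratio of zmm4 to si1 likewise did not overlap between groups, at 47.5%, 48.1% and 50.8% in WT and 41.8%, 43.0% and 39.7% in zmrpn1, a log2 difference of -0.23. The ratio of mads69 to si1 overlapped, with a log2 difference of -0.06. Of the ratios of all other tested genes to si1, 32.0% had groups that did not overlap, so 2 of 3 is to be read against that share. The ratios of zmm4 and mads69 to si1 were chosen after the values had been seen, the 3 ratios share the si1 counts, and none was tested. Without zmrpn1 replicate 3 the log2 difference was -0.14 for zag1 to si1, -0.20 for zmm4 to si1 and -0.07 for mads69 to si1.

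Organ identity and flowering-time genes were set against each other as the mean log2 CPM of zag1 and si1 minus that of zmm4 and mads69 in each library. This value was 0.68, 0.60 and 0.58 in WT replicates 1, 2 and 3 and 0.73, 0.64 and 0.60 in zmrpn1 replicates 1, 2 and 3. The groups overlapped, and the difference was 0.04, smaller than the SD of 0.057 in WT and 0.063 in zmrpn1 (n = 3 each). Within the organ identity class zag1 and si1 had opposite signs, and within the flowering-time class zmm4 and mads69 did. Leaving out 1 library gave differences of 0.0051, without zmrpn1 replicate 1, to 0.072, without WT replicate 1, and of 0.066 without zmrpn1 replicate 3.

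**Figure D4:**
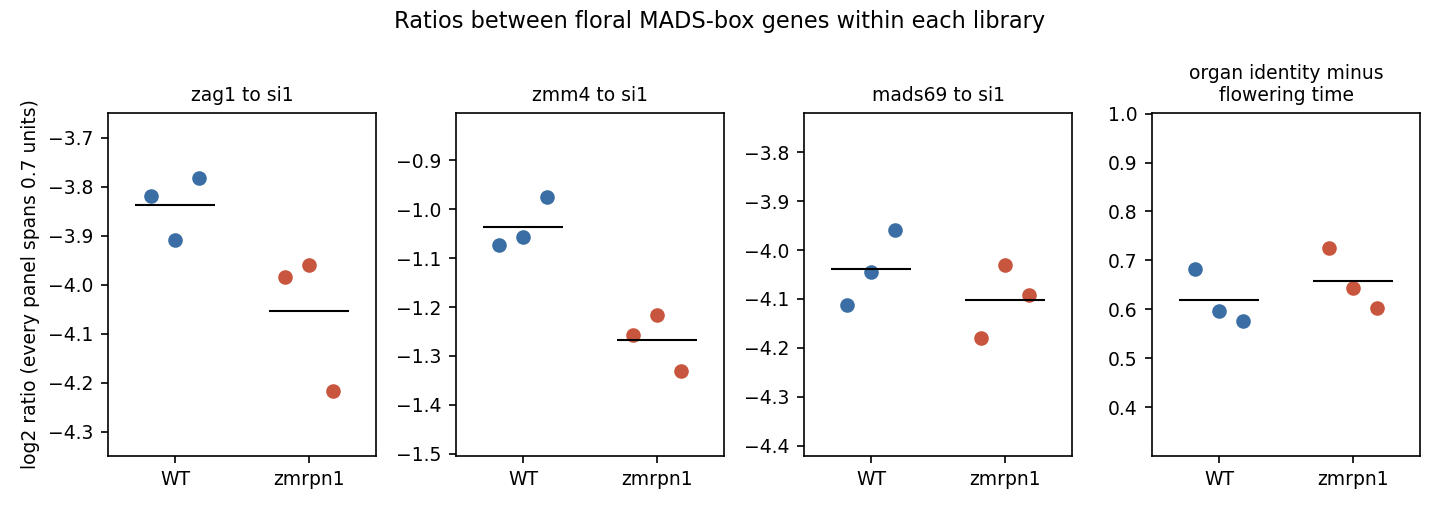
Log2 ratios of the counts of zag1, zmm4 and mads69 to si1 and the organ identity minus flowering-time value (y axes, each spanning 0.7 log2 units) in 3 WT (blue) and 3 zmrpn1 (red) libraries, replicates 1 to 3 from left to right, with group means as lines. The zmrpn1 points lie below the WT points for zag1 to si1 and zmm4 to si1 and overlap with them in the other panels.

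For each gene, the 1 other gene with the most similar pattern was taken among 20756 tested genes of at least 1 CPM in every library, by Pearson correlation of log2 CPM over the 6 libraries. The closest was Zm00001d044203 for zag1 (r = 0.995), Zm00001d012791 for si1 (r = 0.995), Zm00001d038158 for zmm4 (r = 0.997) and Zm00001d049916 for mads69 (r = 0.994). With only 6 libraries many genes reached such values: 46 genes had an r of at least 0.95 with zag1, 69 with si1, 438 with zmm4 and 34 with mads69. The points share the 6 libraries, their depth and the split into WT and zmrpn1. The closest genes of zag1, si1, zmm4 and mads69 had log2 changes of -0.10, 0.18, -0.21 and 0.11. Their edgeR adjusted p were 0.324, 0.0372, 0.0542 and 0.544, so the closest gene of si1 was itself called. A high r can thus reflect a similar gap between groups. These identifiers have no name in the sources used here. A wider account of the family by name was not possible. Of 32 names of other maize MADS-box genes the reference gene table held 18, and of 6 flowering-time partners it held 4, but 0 of these were paired with an identifier of the count table.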

How the data were processed

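The authors deposited raw whole-number read counts for each gene, without normalization. Per the submitters' processing notes, reads were processed on B73 RefGen_v4 with featureCounts 1.6.4, HISAT2 2.2.1, Trimmomatic 0.39, DESeq2 and StringTie 1.3.6, for which no settings are given. Columns were matched to samples by genotype code and replicate number.

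The counts were tested in edgeR 4.0.16 (R 4.3.3) with filterByExpr (minimum count 10), TMM scaling and a robust quasi-likelihood F test across 23477 genes, with Benjamini-Hochberg adjustment over all of them. The standard error of a log2 change was its size over the root of F. All 4 genes passed the filter in both groups. Ratios to si1 used plain counts, and the organ identity minus flowering-time value used log2 CPM with a prior of 2 counts. The genes and lists were chosen with earlier results of these data known. The rule for naming other genes was a choice of the re-analysis. For each of the 4 it took the most similar gene by correlation, and it allowed rows adjacent to a member. Zm00001d034047 lies 2 rows after zmm4, as the nearest tested row on that side, and was named after the values had been seen. Chi-square per degree of freedom for pairs of same-group libraries was 2.03 to 4.87, so no pair agreed within counting noise as a library deposited more than once would. Alternatives were other scalings, filters and thresholds, DESeq2 1.42.0, limma-voom (limma 3.58.1), the replicate number as a block, other priors and each library left out. Names were sought in a RefSeq gene table of another build (Zm-B73-REFERENCE-NAM-5.0), of which 0 entries held a Zm00001d identifier, and no coordinates were used.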

Additional observations from a re-analysis of the deposited data

How the results depend on the processing

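No gene of the 4 changed sign or passed the threshold in any of 15 alternative fits. The log2 change ran from -0.14 to -0.06 for zag1, 0.07 to 0.15 for si1, -0.13 to -0.11 for zmm4 and 0.01 to 0.10 for mads69. In each case the ends came from leaving out 1 library, and the lowest adjusted p were 0.401, 0.119, 0.0886 and 0.603. The number of members called was 0 throughout. Leaving out 1 library moved the zag1 to si1 log2 difference between -0.26 and -0.14, that of zmm4 to si1 between -0.26 and -0.20, that of mads69 to si1 between -0.10 and -0.02 and the organ identity minus flowering-time difference between 0.0051 and 0.072. Priors of 0.5 and 5 counts stayed within these ranges. The number of members whose groups did not overlap was 2 with library size only, where 27.0% of all tested genes did so, an alternative added after the values were seen. Over all genes, 1926 were called at an adjusted p under 0.01, by construction, and 2261 to 2672 without 1 library. A replicate block gave 3006 called genes and 0 called members (zmm4 adjusted p = 0.15). The labels do not say whether libraries with the same number share anything beyond it. Their deviations from the group means correlated at -0.082, 0.059 and 0.017 for replicates 1, 2 and 3. With 3 libraries a group, half-widths of the 95% intervals were 0.10 to 0.17 log2 units before any adjustment for the number of genes.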

Other observations

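The nearest tested rows before and after each gene in the count table were looked at after the values had been seen. Of these 8 rows 1 was called, where 12.4% of all tested genes were. Zm00001d034047, which lies 2 rows after zmm4, had 22.2, 22.0 and 20.3 CPM in WT replicates 1, 2 and 3 and 27.6, 27.9 and 26.1 CPM in zmrpn1 replicates 1, 2 and 3. The groups did not overlap. It rose by 0.34 ± 0.08 on the log2 scale (standard error), with an edgeR adjusted p of 0.0012, while the log2 value of zmm4 was -0.12. Zm00001d034047 is described because it was the called row, so its p and the gap between its groups are no separate support. In 15 alternative fits to the same libraries (edgeR, DESeq2 or limma-voom) it kept its sign, with an adjusted p of 0.000444 to 0.0177. The identifier has no name in the sources used here. Among the 10 tested rows on either side of each gene, 1 of 20 was called around zag1, 2 of 20 around si1, 3 of 20 around zmm4 and 1 of 20 around mads69, or 7 of 80 together, no larger a share than the 12.4% of all tested genes.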
